A study of Mus musculus with 28 samples.

Results

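The 8 genes described here are Lin28a, Lin28b, Igf2bp1, Igf2bp2, Igf2bp3, Hmga1, Hmga2 and Trim71, taken by their symbols out of the 23038 genes of the deposited tables. They encode RNA-binding and chromatin proteins that are abundant in embryonic and fetal tissue. RNA was measured by polyA RNA-seq in dissected mouse brain. The mice were homozygous for a knock-in of the human form of the splicing regulator NOVA1, in which an isoleucine is replaced by a valine (Nova1 hu/hu), or carried the unedited mouse gene (Nova1 wt/wt), all on a C57BL/6J background (BL6 in the labels). Midbrain was taken before birth at E18.5 (6 libraries of each genotype), and midbrain and cortex at postnatal day 21 (P21, 4 libraries of each genotype per region), which gives 28 libraries. The edit is in the germline and so in every cell, and each piece of tissue mixes all cell types of its region. The labels do not say whether midbrain and cortex at P21 came from the same mice, nor whether replicates are separate litters, so p-values measure the spread between these libraries.

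Total counts per library ranged from 18550922 to 35047494 in E18.5 midbrain, from 25256326 to 45134998 in P21 midbrain and from 30423267 to 35643736 in P21 cortex. The regions carried their own markers. At P21 the cortex marker Neurod6 had a mean of 56.5 TPM in cortex and 2.28 TPM in midbrain, and Tbr1 of 62.4 and 0.859 TPM. The summed level of 5 midbrain markers (Th, Slc6a3, En1, En2 and Tph2) was 184 to 229 TPM in midbrain and 12.1 to 23.4 TPM in cortex. TPM, a level per exon length scaled to the same sum in each library, was computed from the deposited counts, so that levels of different genes can be set side by side. The Nova1 level itself differed between genotypes by −0.01 to 0.05 on the log2 scale and was not called in any of the 3 tissues, and gene counts do not show the edited codon.

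LIN28A and LIN28B are RNA-binding proteins that block the maturation of let-7 microRNAs, and let-7 in turn represses the Lin28 messages by pairing with their 3′ ends, so that each side holds the other down. HMGA2, the IGF2BP proteins and TRIM71 are products of other messages that let-7 is known to repress, and the fall of LIN28 with the rise of mature let-7 is a well-known step as embryonic tissue matures. In the developing brain LIN28 and HMGA proteins are known mainly from dividing progenitors, and the IGF2BP proteins from the transport and stabilisation of messages in progenitors and growing neurons.

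In the RefSeq annotation of build mm10 (GRCm38) Lin28a lies at chr4:134003330-134019196, Lin28b at chr10:45376617-45486314, Igf2bp1 at chr11:95957163-96005944, Igf2bp2 at chr16:22059009-22163299, Igf2bp3 at chr6:49085218-49215469, Hmga1 at chr17:27556574-27563672, Hmga2 at chr10:120361268-120476469 and Trim71 at chr9:114511268-114564369. All 8 are annotated as protein-coding. The 3′ UTRs searched for let-7 matches come from another annotation, GENCODE, whose Trim71 model reaches farther downstream, and 2 of its 4 Trim71 matches lie outside the RefSeq interval. The let-7 sequences are given because all 8 messages hold a match to them. RefSeq (GRCm38.p6) lists 9 mature let-7 family members of the 5p arm, all 22 bases long and all with the same seed, bases 2 to 8, written here in capitals. They differ only outside it, as in these 4:
mmu-let-7a-5p: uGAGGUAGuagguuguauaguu
mmu-let-7d-5p: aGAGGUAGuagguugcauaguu
mmu-let-7g-5p: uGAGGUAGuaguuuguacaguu
mmu-miR-98-5p: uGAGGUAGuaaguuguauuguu

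The complement of that seed, CTACCTC, was searched on the message strand in the longest annotated 3′ UTR of every protein-coding gene (GENCODE M21, build mm10). It was present in 9.02% of 21010 genes, and in its longer form with a following A in 3.06%. All 8 genes had at least 1 match, and 7 of the 8, all but Hmga1, had the longer form. Since these genes are largely known as let-7 targets, the count describes them and adds nothing to how they were chosen. Lin28b, Igf2bp1, Hmga2 and Trim71 had 4 matches each, Lin28a had 2, and Igf2bp2, Igf2bp3 and Hmga1 had 1 each. Longer 3′ UTRs hold more matches by length alone: of the 3′ UTRs within 20% of the length of the Hmga2 3′ UTR (3014 bases), 15.5% held a match and 0.134% held 4 or more, and for Trim71 (5512 bases) the shares were 29.4% and 0.505%. For Hmga1 (1183 bases) 8.09% of 3′ UTRs of like length held a match. A match is a string of letters, and binding was not measured here. The match nearest to the stop codon of each message, with 14 bases before it, was as follows, with the complement of the seed and, where present, the following A in capitals:
Lin28a (chr4:134005189-134005210, minus strand): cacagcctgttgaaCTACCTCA
Lin28b (chr10:45381022-45381043, minus strand): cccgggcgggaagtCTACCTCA
Trim71 (chr9:114512472-114512493, minus strand): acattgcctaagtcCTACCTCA
Igf2bp1 (chr11:95961778-95961799, minus strand): ctgtgcgaagtaaaCTACCTCA
Igf2bp2 (chr16:22059473-22059494, minus strand): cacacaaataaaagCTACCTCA
Igf2bp3 (chr6:49086787-49086808, minus strand): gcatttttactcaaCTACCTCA
Hmga1 (chr17:27563278-27563299, plus strand): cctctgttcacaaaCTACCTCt
Hmga2 (chr10:120364224-120364245, minus strand): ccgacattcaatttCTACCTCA

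In E18.5 midbrain the 8 levels ran from about 45 TPM down to about 0.1 TPM. Hmga1 led with 45.1 TPM ± 3.87 (SD, n = 12), followed by Igf2bp2 with 15.2 TPM ± 1.90, Lin28b with 9.48 TPM ± 1.38 and Igf2bp3 with 9.44 TPM ± 1.43. The levels of Igf2bp1 (4.31 TPM ± 0.696), Hmga2 (2.37 TPM ± 0.450), Lin28a (0.523 TPM ± 0.191) and Trim71 (0.109 TPM ± 0.105) were lower. Along this order the ranges over the 12 libraries were apart except between Lin28b and Igf2bp3, between Igf2bp1 and Hmga2, and between Lin28a and Trim71. At P21 Hmga1 again led in both regions, with 52.2 TPM ± 1.59 in midbrain and 30.2 TPM ± 1.87 in cortex (SD, n = 8 each). Lin28b, Igf2bp2 and Igf2bp3 had means between 1.53 and 2.63 TPM, with ranges that overlapped from each to the next in both regions. The means of the other 4 genes were at or below 0.353 TPM in both.

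**Figure D1:**
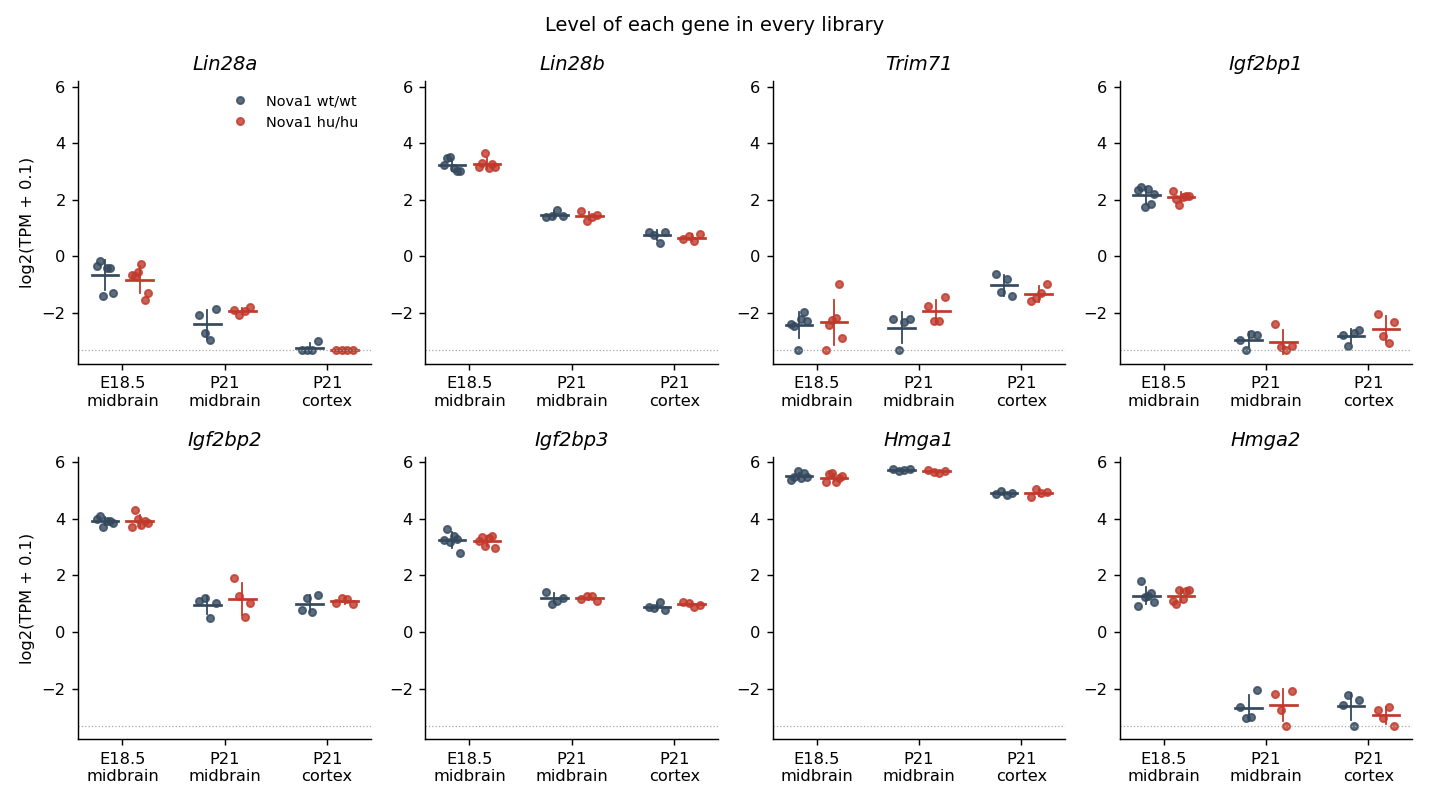
Level of each of the 8 genes in every library, as log2(TPM + 0.1), by age and region (x axis) and genotype (colour). Points are libraries, horizontal lines are group means, vertical lines are SD, and the dotted line marks a TPM of 0. Hmga1 stays near the top in all 3 tissues, Igf2bp1 and Hmga2 drop from E18.5 to near the dotted line at P21, and the genotypes overlap in every tissue.

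The comparison of P21 with E18.5 midbrain shows which of these genes fell as the midbrain matured. Lin28a, Lin28b, Igf2bp1, Igf2bp2, Igf2bp3 and Hmga2 fell, by 3.12-fold for Lin28b to 124-fold for Igf2bp1, and Hmga1 rose by 1.34-fold. Trim71 was too low to pass the filter on low counts. A gene was called where edgeR's quasi-likelihood test gave a p under 0.05 that stayed under 0.1 after Benjamini-Hochberg adjustment over all genes tested. At these thresholds 86.1% of the 15902 genes tested were called, 43.3% lower and 42.8% higher at P21, so 7 called of 7 tested is near what most genes did. All 6 genes that fell did so by at least 2-fold, as 14.3% of all tested genes did, and Igf2bp1 and Hmga2 fell by at least 8-fold, as 1.11% did. Lin28a, Igf2bp1 and Hmga2 passed the filter through their E18.5 libraries alone, since at P21 they were too low for it, so that their presence in the test already depended on the fall and these counts support nothing about the 8 genes as a group. Age cannot be told apart from any batch in which the ages were prepared.

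**Figure D2:**
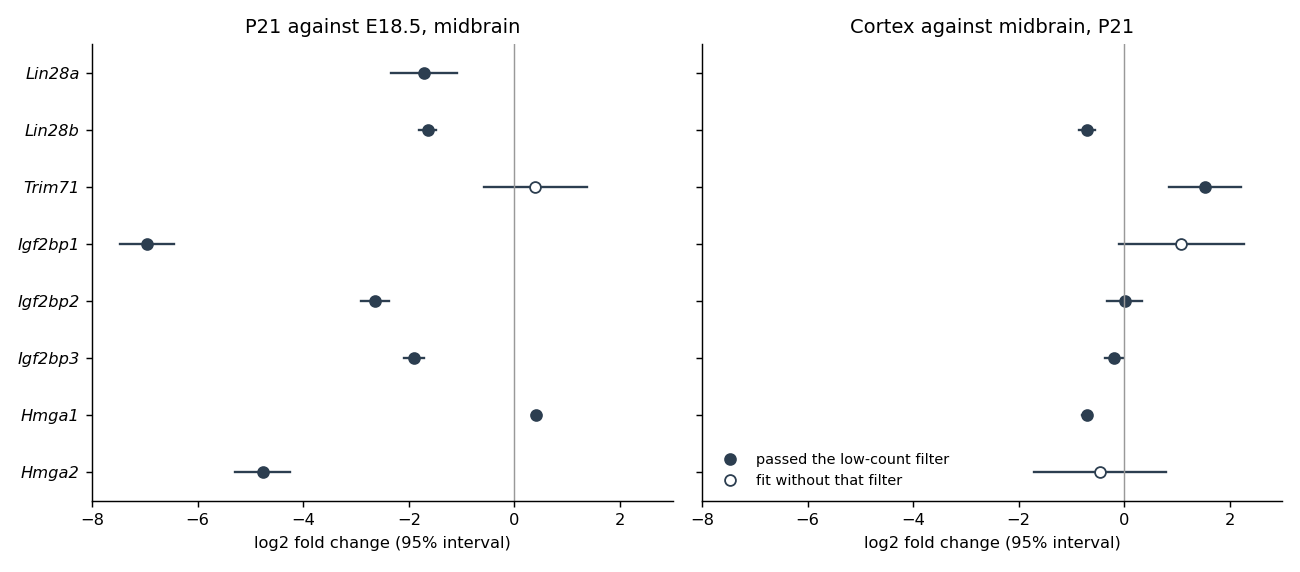
Log2 fold change with its 95% interval for P21 against E18.5 in midbrain (left) and for cortex against midbrain at P21 (right). Filled points passed the low-count filter, open points come from the fit without it, and Lin28a is not drawn at right because the 8 cortex libraries held 1 count of it. Igf2bp1 and Hmga2 lie farthest to the left with age, Hmga1 lies to the right of 0 with age and to the left in cortex.

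Lin28a and Lin28b, the blockers of let-7 maturation, fell to a similar degree although their levels differ widely. Lin28b ranged from 7.98 to 12.4 TPM over the E18.5 libraries, with medians of 9.15 TPM in hu/hu and 8.87 TPM in wt/wt. In P21 midbrain it was 2.92, 2.25, 2.50 and 2.66 TPM in the hu/hu libraries and 2.52, 2.61, 3.04 and 2.58 TPM in the wt/wt libraries. The ages were thus far apart, and the log2 fold change was −1.64 (SE 0.077, adjusted p 1.19e-16). Lin28a ranged from 0.243 to 0.781 TPM at E18.5, from 6 to 19 counts per library. At P21 it was 0.167, 0.137, 0.158 and 0.189 TPM in the hu/hu midbrains and 0.139, 0.0535, 0.0294 and 0.171 TPM in the wt/wt midbrains, from 1 to 8 counts. The highest P21 midbrain library still lay below the lowest E18.5 library, and the log2 fold change was −1.71 (SE 0.30, adjusted p 1.19e-05). It was −2.21 in the wt/wt and −1.31 in the hu/hu libraries alone, and the difference between the genotypes was not called (adjusted p 0.9999). Pooled over libraries, Lin28a had 153 counts at E18.5 and 43 at P21, a 3.64-fold difference in CPM (counts scaled to the library total) with a 95% interval of 2.58 to 5.23 for counting error only. Lin28b made up 94.7% ± 1.95 (SD, n = 12) of the summed Lin28 level at E18.5 and 95.2% ± 2.09 (n = 8) in P21 midbrain.

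Trim71, a ubiquitin ligase and RNA-binding protein that is itself known as a let-7 target, showed no such fall. It had 0 to 15 counts per library in E18.5 midbrain and 0 to 17 in P21 midbrain, 48 and 61 counts in all. The pooled CPM ratio of P21 to E18.5 was 1.24, with a 95% counting interval of 0.837 to 1.85. In the fit without the filter its log2 fold change was 0.40 (95% interval −0.58 to 1.38, adjusted p 0.458), and an exact two-sided permutation test of log2 CPM gave p = 0.369 (12 against 8 libraries). A fall as large as that of Lin28b lies outside both intervals.

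The Igf2bp genes encode proteins that bind messages such as Igf2, Actb and Myc and control their transport and stability. All 3 fell between E18.5 and P21 midbrain, Igf2bp1 by far the most. Igf2bp1 ranged from 3.22 to 5.32 TPM in the E18.5 libraries (197 to 399 counts), with medians of 4.23 TPM in hu/hu and 4.74 TPM in wt/wt. In P21 midbrain it was 0.0893, 0.00810, 0 and 0.00981 TPM in hu/hu and 0.0289, 0, 0.0489 and 0.0445 TPM in wt/wt, from 0 to 9 counts per library. The 22 counts of the 8 P21 midbrain libraries set against 3119 at E18.5 give a 145-fold lower pooled rate (95% counting interval 95.7 to 232), beside a fitted log2 fold change of −6.96 (SE 0.25, adjusted p 3.01e-19). The hu/hu replicate 1 held 9 of the 22 counts.

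Igf2bp2 ranged from 12.97 to 19.7 TPM at E18.5. In P21 midbrain it was 3.63, 2.30, 1.35 and 1.93 TPM in hu/hu and 2.02, 2.21, 1.304 and 1.95 TPM in wt/wt. It varied more between the P21 midbrain libraries than the other Igf2bp member of like level, and the hu/hu replicate 1 was the highest of the 8. That library's summed level of the choroid plexus markers Ttr, Kl and Folr1 was 2834 TPM, in a range over the 8 libraries of 10.5 to 3022 TPM. The library at 3022 TPM, the wt/wt replicate 1, had an Igf2bp2 level of 2.02 TPM, and the part of such tissue in the Igf2bp2 level was not tested. Its log2 fold change with age was −2.65 (SE 0.13, adjusted p 2.80e-16). Igf2bp3 ranged from 6.82 to 12.3 TPM at E18.5. In P21 midbrain it was 2.16, 2.32, 2.34 and 2.03 TPM in hu/hu and 2.57, 1.90, 2.06 and 2.22 TPM in wt/wt. No P21 library came near the E18.5 range, and the log2 fold change was −1.89 (SE 0.092, adjusted p 2.69e-16). As the 3 fell to different degrees, the makeup of the family changed. Igf2bp1 gave 14.9% ± 2.16 (SD, n = 12) of the summed Igf2bp level at E18.5 and 0.632% ± 0.628 (n = 8) in P21 midbrain. Igf2bp3 gave 32.6% ± 3.03 and 52.0% ± 8.31, while Igf2bp2 gave 52.5% ± 3.41 and 47.3% ± 8.17.

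**Figure D3:**
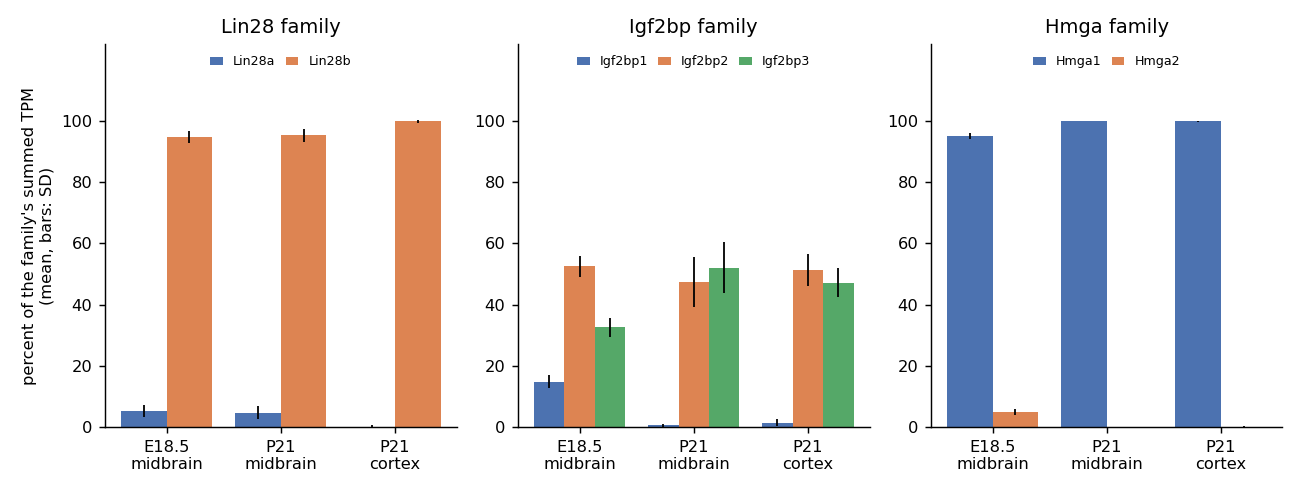
Share of each gene in the summed TPM of its family (percent, mean over libraries, vertical lines SD) in E18.5 midbrain (n = 12), P21 midbrain and P21 cortex (n = 8 each). Igf2bp1 and Hmga2 hold 14.9% and 5.01% of their families at E18.5 and under 2% at P21 in both regions, and Lin28b holds over 90% of the Lin28 sum in every tissue.

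The Hmga genes encode AT-hook proteins that bind the minor groove of AT-rich DNA. The 2 members went in opposite directions with age. Hmga2 ranged from 1.80 to 3.39 TPM at E18.5 (47 to 124 counts), with medians of 2.41 TPM in hu/hu and 2.30 TPM in wt/wt. In P21 midbrain it was 0.119, 0.0488, 0 and 0.138 TPM in hu/hu and 0.0579, 0.0223, 0.0245 and 0.143 TPM in wt/wt, from 0 to 8 counts per library. Its 871 counts at E18.5 and 28 in P21 midbrain correspond to a 31.8-fold lower pooled rate (95% counting interval 21.9 to 48.2), and the fitted log2 fold change was −4.77 (SE 0.26, adjusted p 2.01e-15). Hmga2-ps1, a transcribed pseudogene of Hmga2, had 42 counts in the 12 E18.5 libraries and 193 in the 8 P21 midbrain libraries. It thus moved the other way from Hmga2, although reads shared between the copies would blur the difference.

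Hmga1 was the only one of the 8 genes called higher at P21. It ranged from 39.3 to 51.4 TPM at E18.5, with medians of 44.6 TPM in hu/hu and 45.0 TPM in wt/wt. In P21 midbrain it was 53.1, 51.0, 49.2 and 51.8 TPM in hu/hu and 53.8, 51.5, 53.2 and 53.9 TPM in wt/wt. On this scale the 2 ages overlapped, with the highest E18.5 library above the lowest P21 libraries, while the fitted log2 fold change, which rests on TMM-scaled counts, was 0.42 (SE 0.042, adjusted p 8.08e-10). The log2 ratio of mean TPM was 0.21, so the size of the rise depended on the scale and its direction did not.

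The markers of immature and dividing cells fell with the same comparison. All 6 proliferating-cell markers (among them Mki67 and Top2a) fell, with a summed level of 123 to 153 TPM at E18.5 and 4.69 to 8.92 TPM in P21 midbrain, and so did all 6 neural progenitor markers (3669 to 4590 TPM against 273 to 349 TPM) and all 5 immature-neuron markers (3204 to 3765 TPM against 920 to 1023 TPM). All 4 neuron markers rose, from a summed 813 to 956 TPM to 3155 to 3406 TPM, as did all 4 oligodendrocyte markers, from a summed 58.2 to 81.1 TPM to 18264 to 20584 TPM, and the 4 meningeal and fibroblast markers fell, from 217 to 344 TPM to 99.9 to 136 TPM. No gene of these 6 lists was at 0 in every library of either age. In bulk tissue fewer cells of a type and less RNA per cell cannot be told apart, and the part of cell makeup in the changes of the 8 genes was not tested.

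The genes that work with LIN28 and let-7 were compared over the same ages, from lists of textbook members (Myc and Igf1r are in both the let-7 target and the IGF2 list). All 14 measured genes of microRNA biogenesis and let-7 turnover fell, with a median log2 fold change of −0.62 beside −0.01 over all genes tested. The most abundant were the helicases Ddx5 (816 TPM at E18.5 and 475 TPM in P21 midbrain) and Ddx17 (271 and 156 TPM) and the RNA-binding protein Hnrnpa1 (240 and 53.7 TPM). The largest changes were those of Hnrnpa1 (log2 fold change −1.95, SE 0.032) and of Zcchc11, the uridylyl transferase TUT4 that LIN28A recruits to precursors of let-7 (−1.44, SE 0.044, from 54.0 to 17.2 TPM). Of 12 let-7 host transcripts and precursor genes in the tables, 4 passed the filter, of which 1 rose and 3 fell. Mirlet7b rose (log2 fold change 0.64, SE 0.29, adjusted p 0.0412), and Mirlet7c-1 (−2.41, SE 0.33), Mirlet7e (−1.26, SE 0.31) and the long RNA 2610203C20Rik (−1.03, SE 0.050) fell, while Mirlet7d, at 11.7 and 11.98 TPM (2 to 25 counts per library), did not pass the filter. Mirlet7b, Mirlet7c-1 and Mirlet7e had 3 to 17, 8 to 24 and 5 to 23 counts per E18.5 library. In P21 midbrain they had 6 to 37, 1 to 6 and 2 to 11. Mirlet7c-1 and Mirlet7e did not pass the filter among the P21 libraries, so their presence in the age test depended on their E18.5 level. The polyA libraries do not hold mature microRNAs, so these values say nothing of the amount of mature let-7.

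Of 23 other textbook let-7 targets, 19 fell, 3 rose and 1 was not called, with a median log2 fold change of −0.61. The transcription factor Mycn fell (−2.81, SE 0.091, from 29.4 to 3.61 TPM), and the ubiquitin-conjugating enzyme Cdc34, one of the most abundant of the list, rose (0.33, SE 0.044). The other two that rose were E2f6 and Irs2, and Nr6a1 was not called, 3 genes named after their values were seen. Among 10 genes of the IGF2 axis and of messages bound by IGF2BP proteins, 8 fell and 2 (Dlk1 and Btrc, named after their values were seen) rose, with a median of −0.79. H19, the imprinted RNA next to Igf2, had the largest fall (−6.45, SE 0.12, from 175 to 1.79 TPM). Igf2 (−1.14, SE 0.057), Actb (−0.86, SE 0.032) and Myc (−2.28, SE 0.086) fell less.

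Of 10 tested genes of other high-mobility-group proteins and HMGA-linked cell cycle inhibitors, 9 fell and Cdkn2b was not called, with a median log2 fold change of −1.28. Hmgb2 (−2.93, SE 0.073, from 23.4 to 2.66 TPM) and Hmgb3 (−2.32, SE 0.056, from 180 to 31.3 TPM) had the largest falls, and Hmgn1 (−1.43, SE 0.052) and Hmgn3 (−0.65, SE 0.061) were among the 3 most abundant. Hmga1 thus rose while all 7 Hmgb and Hmgn genes of the list fell. Of 8 pluripotency-network genes, 4 passed the filter. Sox2 (−0.86, SE 0.048) and Sall4 (−1.33, SE 0.32) fell and Tdgf1 (4.98, SE 0.34) rose. Klf4 was called higher by a small margin (0.17, SE 0.084, adjusted p 0.0578), but its mean TPM was slightly lower at P21 (7.09 at E18.5 and 6.95 in P21 midbrain), so that its direction depended on the scale, and Pou5f1, Nanog, Utf1 and Dppa4 lay at or below 0.215 TPM on average in each of the 3 tissues.

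**Figure D4:**
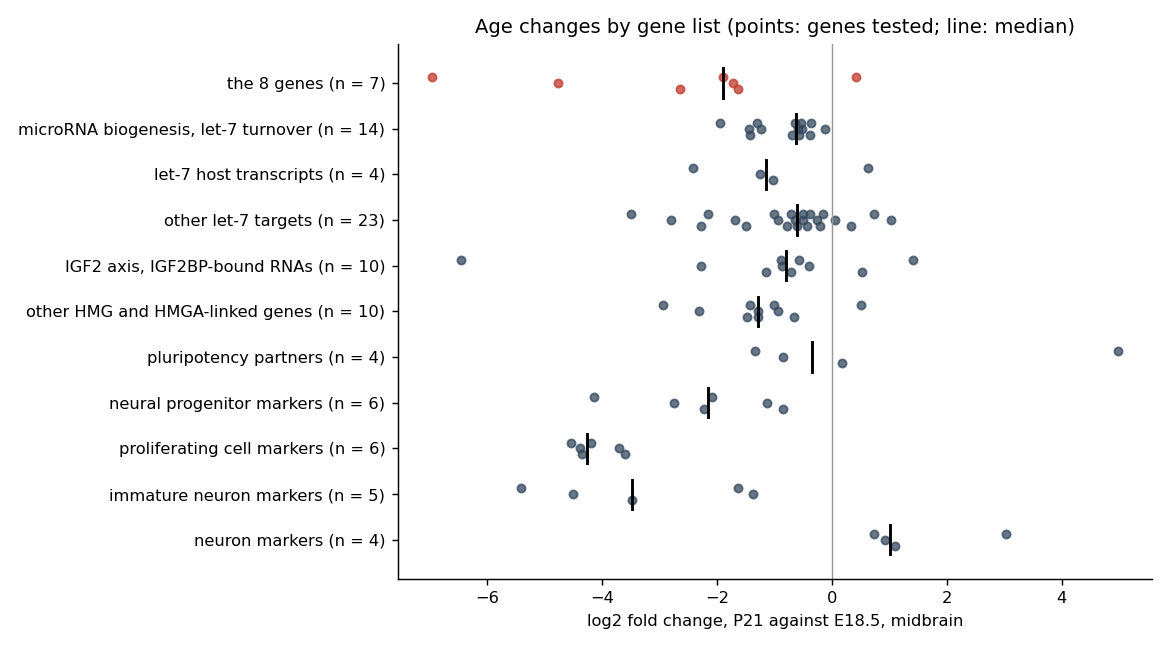
Log2 fold change of P21 against E18.5 midbrain for the tested genes of each list (points) with the list's median (black line), the 8 genes in red. The medians of the pathway lists lie between −1.28 and −0.34 beside −1.89 for the 7 tested of the 8 genes, with Igf2bp1 and H19 as the leftmost points.

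The comparison of cortex with midbrain at P21 asks whether the low levels of these genes after birth depend on region. Lin28b, Igf2bp3 and Hmga1 were lower in cortex, Trim71 was higher and Igf2bp2 was not called. Of 15897 genes tested, 76.4% were called, 38.4% higher and 38% lower, so 4 called of 5 tested is near what most genes did. Trim71 passed the filter through its cortex libraries alone, so its presence among the 5 already depended on its higher level there. Of all tested genes 7.33% were lower in cortex by at least 2-fold and 0.774% by at least 8-fold, and none of the 5 was. Lin28b was 1.44, 1.53, 1.34 and 1.62 TPM in the hu/hu cortices and 1.71, 1.59, 1.29 and 1.71 TPM in the wt/wt cortices. All 8 lay below the lowest midbrain library of 2.25 TPM, with a log2 fold change of −0.71 (SE 0.076, adjusted p 9.97e-09). Hmga1 was 27.3, 33.1, 30.2 and 31.2 TPM in the hu/hu cortices and 29.3, 31.8, 28.4 and 30.4 TPM in the wt/wt cortices, again without overlap with midbrain, and its log2 fold change was also −0.71 (SE 0.040, adjusted p 4.94e-14). All 4 oligodendrocyte markers were also lower in cortex, with a summed level of 5235 to 5905 TPM beside 18264 to 20584 TPM in midbrain. So were 3 of 4 astrocyte markers (1 was higher), 3 of 4 endothelial markers (1 was not called) and all 5 midbrain markers. The part of these cell types in the lower Lin28b and Hmga1 levels was not tested.

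Lin28a was nearly undetected in the cortex libraries. All 4 hu/hu libraries were at 0, and the wt/wt libraries held 0, 0, 0 and 1 count, while every midbrain library held between 1 and 8. Pooled over 8 libraries each, 1 count in cortex and 43 in midbrain give a 39.2-fold lower rate in cortex, with a wide 95% counting interval of 6.68 to 1585. The 0 of the hu/hu cortices allows up to 0.0226 CPM (3 counts over the 4 libraries). Lin28a did not pass the low-count filter. In the fit without it the difference was called (adjusted p 5.00e-06 over all genes), and an exact two-sided permutation test of log2 CPM gave p = 0.000155 with 8 against 8 libraries, the smallest that this test can give.

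Trim71 was the member called higher in cortex, and it passed the low-count filter through its cortex libraries alone. It was 0.231, 0.258, 0.309 and 0.410 TPM in the hu/hu cortices and 0.554, 0.314, 0.469 and 0.281 TPM in the wt/wt cortices, from 12 to 30 counts per library. In midbrain it was 0.192, 0.105, 0.106 and 0.269 TPM in hu/hu and 0.117, 0, 0.0987 and 0.115 TPM in wt/wt, so that 1 midbrain library reached into the cortex range. The log2 fold change was 1.54 (SE 0.33, adjusted p 0.000208), and the pooled counts of 160 and 61 gave a ratio of 2.87 (95% counting interval 2.13 to 3.93). Among the markers that differed the same way were 4 of 6 proliferating-cell markers (summed 7.33 to 10.5 TPM in cortex and 4.69 to 8.92 TPM in midbrain). So did 4 of 5 immature-neuron markers, 4 of 4 neuron markers and 4 of 4 microglia markers. The immature-neuron marker Tubb3 was lower in cortex (log2 fold change −0.28). The summed immature-neuron level was also lower there, at 792 to 919 TPM beside 920 to 1023 TPM in midbrain. The part of these cell types in the Trim71 difference was not tested.

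Of the Igf2bp genes, Igf2bp3 was slightly lower in cortex and Igf2bp1 and Igf2bp2 were not called. Igf2bp2 was 1.94, 2.21, 2.17 and 1.87 TPM in the hu/hu cortices and 1.604, 2.20, 1.53 and 2.37 TPM in the wt/wt cortices, inside the midbrain range, and its log2 fold change was 0.01 with a 95% interval of −0.32 to 0.33 (adjusted p 0.965). Igf2bp3 was 1.99, 1.94, 1.75 and 1.83 TPM in the hu/hu cortices and 1.74, 1.71, 1.98 and 1.61 TPM in the wt/wt cortices. These overlapped with midbrain, and the small difference of −0.19 (SE 0.080, adjusted p 0.0336) was no longer called without the wt/wt cortex replicate 4 (−0.17, p 0.0549) or without the wt/wt midbrain replicate 1 (−0.16, p 0.0601). Igf2bp1 and Hmga2 did not pass the filter. Igf2bp1 had 43 counts in cortex and 22 in midbrain, a pooled ratio of 2.14 (95% counting interval 1.25 to 3.76). The fit without the filter, which takes in the spread between libraries, gave a log2 fold change of 1.08 (95% interval −0.11 to 2.26) and did not call it (adjusted p 0.110). Hmga2 had 18 and 28 counts (adjusted p 0.524 in that fit), and a regional difference of it was not detectable at this depth.

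Among the pathway lists, 5 of the 14 microRNA biogenesis genes were higher in cortex, 4 lower and 5 not called, with a median log2 fold change of 0.05 beside 0.00 over all genes tested. Of the 4 tested let-7 host transcripts 2 were higher and 1 was lower, namely 2610203C20Rik (−0.99). Of the 23 other let-7 targets 12 were higher and 5 lower, Mycn among the former (1.07, SE 0.13). Of the 10 IGF2-axis genes 3 were higher and 5 lower, with H19 at −1.15 and Actb at 0.56. Of the 10 HMG and HMGA-linked genes 8 were higher, none was lower and 2 were not called (median 0.35), which is the opposite direction to Hmga1. Of 3 tested pluripotency genes 1, Tdgf1, was lower (−1.997).

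The comparison of Nova1 hu/hu with Nova1 wt/wt asks whether the human form of NOVA1 changes the level of these genes. None of the 8 genes was called in E18.5 midbrain (7 tested), P21 midbrain (4 tested) or P21 cortex (5 tested), and none of these 16 tests had an unadjusted p under 0.05. With edgeR's quasi-likelihood test 0% of the 15540, 15972 and 15767 genes tested were called. The paper, with edgeR at the same thresholds, reported Gkn3 as lower in hu/hu in P21 midbrain. Its methods do not state which edgeR test was used. The number of genes with an unadjusted p under 0.05 was 201, 426 and 450, and DESeq2 called 0, 1 and 0 genes. With a block for the replicate number edgeR called 0, 4 and 0, and none of the 8 was called in either way. In E18.5 midbrain, where most of the 8 are well expressed, the log2 fold changes were 0.03 for Lin28b (95% interval −0.17 to 0.24), 0.00 for Igf2bp2 (−0.20 to 0.20), −0.06 for Igf2bp3 (−0.30 to 0.19) and −0.06 for Hmga1 (−0.20 to 0.08). Those of Igf2bp1 (−0.09, interval −0.37 to 0.19) and Hmga2 (−0.01, −0.34 to 0.31) were as small with wider intervals, and that of Lin28a was −0.23 (−0.93 to 0.47). These intervals exclude changes of 2-fold or more for all of these 7 genes, and the p-values do not show that the genotypes are equal.

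**Figure D5:**
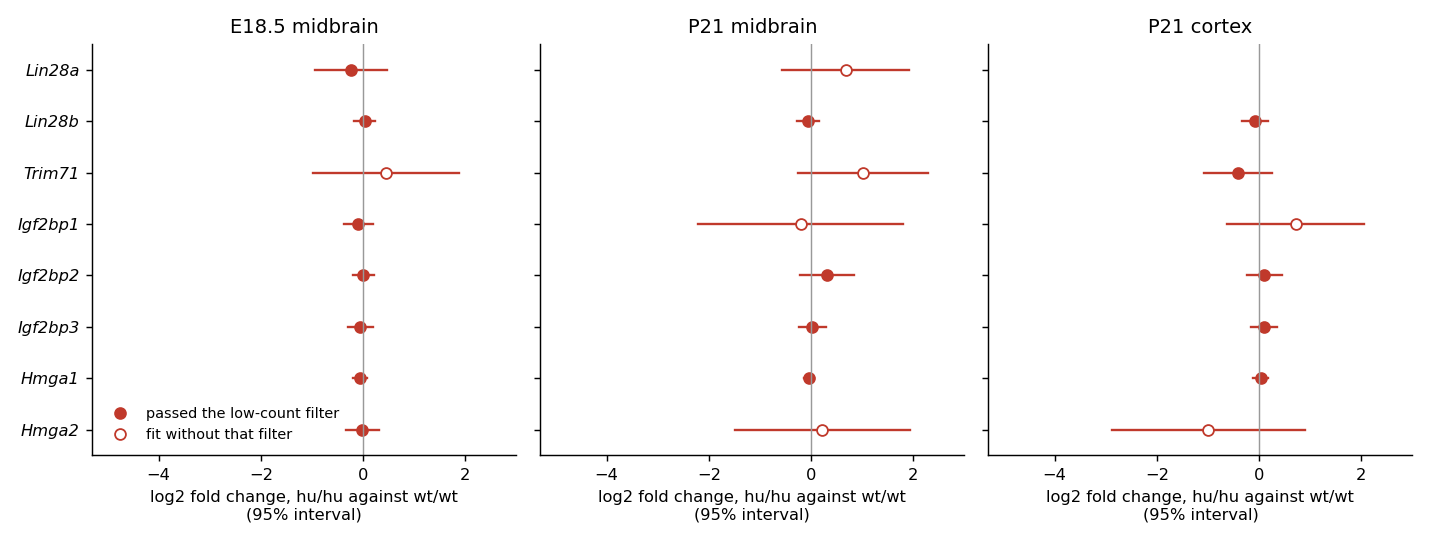
Log2 fold change of Nova1 hu/hu against Nova1 wt/wt with its 95% interval for each gene in the 3 tissues. Filled points passed the low-count filter, open points come from the fit without it, and Lin28a is not drawn in cortex, where it had 1 count. Every interval includes 0, and those of Lin28b, Igf2bp3 and Hmga1 are narrow in all 3 tissues.

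At P21 the best measured genes differed by as little. In midbrain the log2 fold changes were −0.06 for Lin28b (95% interval −0.27 to 0.16), 0.03 for Igf2bp3 (−0.23 to 0.28) and −0.04 for Hmga1 (−0.15 to 0.06). In cortex they were −0.08 for Lin28b (−0.34 to 0.17), 0.10 for Igf2bp3 (−0.16 to 0.35) and 0.03 for Hmga1 (−0.13 to 0.18). Igf2bp2 was 0.30 in midbrain (−0.22 to 0.83), and this fell to 0.01 without the hu/hu replicate 1, the high library named above. In cortex it was 0.10 (−0.25 to 0.44). Exact two-sided permutation tests of log2 CPM for each of the 8 genes in each tissue, 24 tests, gave no p under 0.05, also for the genes too low for the filter. The lowest exact permutation p was 0.0571 for Hmga1 in P21 midbrain, with a mean log2 difference of −0.046. The smallest p that 4 against 4 libraries can give is 0.0286 (0.00216 for 6 against 6). In that tissue Hmga1 was lower in hu/hu in 4 of 4 same-numbered pairs. Lin28a and Trim71 were higher in hu/hu in 4 of 4 such pairs (exact permutation p 0.20 each). Whether the numbers pair the genotypes was not settled.

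Among the 5 genes that passed the filter at P21, Trim71 had the largest difference of the genotype effect between regions. It had 43 counts in the hu/hu and 18 in the wt/wt midbrains at P21, and 70 and 90 in the cortices. The pooled hu/hu to wt/wt ratio was 1.999 in midbrain (95% counting interval 1.13 to 3.68) and 0.745 in cortex (0.537 to 1.03). These intervals leave out the spread between libraries. With that spread the exact permutation p was 0.20 in each region, and the test of the difference between regions gave a log2 difference of −1.43 (SE 0.65), with an unadjusted p of 0.0396 and an adjusted p of 0.9999 by edgeR. Over all genes 373 had an unadjusted p under 0.05 in that test and none was called, by edgeR or by DESeq2. No difference of the genotype effect between ages was called for the 7 genes tested (303 genes of 16330 with an unadjusted p under 0.05, none called by either tool).

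In the pathway lists, too, no gene was called between genotypes in any tissue. The medians of the log2 fold changes over each list lay between −0.08 and 0.08, beside 0.00 over all genes tested in each tissue.

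Genes whose pattern was most like that of each of the 8 were found by the correlation of log2 CPM over the 28 libraries. These correlations follow mostly the 2 ages and 2 regions that all libraries share and are given as a description. Igf2bp1 was most like the mitotic kinesins Kif11 (r = 0.99) and Kif15 (r = 0.99) and the histone chaperone Nasp (r = 0.99). Lin28b was most like Mtap1b, Grik1 and Ncam1 (r = 0.99 each), which are genes of growing or mature neurons, and Igf2bp3 like Spast, Hells and Xpr1 (r = 0.99 each). Hmga2 was most like Il17rd, Rimklb and Agbl5 (r = 0.98 each), Igf2bp2 like Zfp90, Ddah2 and Fam40a (r = 0.98 to 0.99), and Hmga1 like Baiap3, Ptch1 and Esyt1 (r = 0.97 each). For Lin28a the 3 were Nova1 (r = 0.96), 1200014J11Rik and Aqr (r = 0.95 each), and for Trim71 they were Gpx6 (r = 0.84), Pdlim1 and Ptpn7 (r = 0.82 each). These last 2 sets rest on few counts. Lin28a had at most 19 counts in an E18.5 library, 8 in a P21 midbrain library and 1 in a cortex library. Trim71 had at most 30 in any library.

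Within the 12 E18.5 libraries, after the mean of each genotype was subtracted, age and region no longer set the pattern. Lin28b was then most like Dicer1, which encodes the enzyme that cuts let-7 precursors (r = 0.96), Upf3a and Adnp (r = 0.96 each). Hmga1 was most like Jph1 (r = 0.96), Fancc and Sdk2 (r = 0.94 each). Igf2bp2 was like Slc16a10 (r = 0.87) and 2810442I21Rik (r = 0.86). For Igf2bp1 the 3 were C130021I20Rik (r = 0.94), Rbm12b and Apool (r = 0.93 each), for Igf2bp3 Pln (r = 0.88), Rilpl1 and Ing2 (r = 0.87 each), and for Hmga2 Gm15408, Man1a (r = 0.84 each) and Eaf2 (r = 0.81). Each of these genes was picked as the highest among all genes over 12 libraries that also share preparation and depth, and no test was run. Lin28a and Trim71 were too low for this comparison.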

How the data were processed

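PolyA RNA-seq of 28 mouse brain libraries was used. Per the paper's methods, the authors used OLego for alignment of paired-end reads to mm10 and Quantas for counting. The deposited tables give 23038 genes with their exon lengths, expected counts and RPKM. The deposited RPKM follows from the count, the exon length and the library total (largest relative difference 2.27e-13). Deposited expected counts are not whole for 751 to 2711 genes per library and were rounded for the tests. TPM was computed here from the unrounded counts and exon lengths. Use of the strand in counting is not given in the sources used here, so overlapping genes and near-identical copies are uncertain.

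Tests used R 4.3.3 with edgeR 4.0.16 (glmQLFit and glmQLFTest, TMM factors, filterByExpr), two-sided, over all genes that passed the filter. DESeq2 1.42.0 was an alternative. Genotypes were compared within each tissue without a covariate, ages and regions with genotype as a covariate, and differences of the genotype effect as interactions. Log2 CPM used a prior count of 2. Count intervals are exact (Clopper-Pearson, 95%) and cover counting error only. The scripts were tested on simulated data. The genes, the pathway lists and the rules for naming genes (all 8, and per list the 3 most abundant and the 2 with the largest age change) were chosen with earlier results of these data known. Alternatives were RLE factors, DESeq2, no filter, a mean of at least 10 counts, an adjusted p under 0.05, the replicate number as a block, all 28 libraries in one fit, each genotype alone, the ratio of mean TPM, and each library left out in turn.

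Replicate numbers come from the sample titles, and the paper's reporting form speaks of male-female pairs in equal number. Deviations from the genotype mean correlated between same-numbered hu/hu and wt/wt libraries at 0.171 to 0.391 in E18.5 midbrain (6 pairs), 0.201 to 0.235 in midbrain at P21 (4 pairs) and 0.170 to 0.246 in cortex (4 pairs). Between regions the correlations of same-numbered libraries were −0.201 to −0.102 (8 pairs), and between ages −0.145 to 0.147 (8 pairs). Libraries with different numbers were not compared, so whether the numbers pair the genotypes was not settled, and the main genotype tests used no block for them. Positions and 3′ UTRs come from GENCODE M21 and RefSeq on GRCm38, the same build as mm10, and microRNA sequences from RefSeq. Some genes that the naming rule selects are not reported here.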

Additional observations from a re-analysis of the deposited data

Results flagged for a closer look

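In groups of 4 or 6 libraries, a library was looked for that lay apart from the rest of its group by Dixon's criterion at the 95% level. Of 47 groups with a value above 0, 6 held such a library. The chance rate of about 1 in 20 holds for normally distributed values and not for groups of a few counts. An excess of such libraries therefore cannot be read from this number. Lin28b was highest in the E18.5 hu/hu replicate 3 (12.4 TPM, the others 8.63 to 9.63 TPM) and in the P21 midbrain wt/wt replicate 3 (3.04 TPM, the others 2.52 to 2.61 TPM). Both libraries lay on the same side of the difference between ages as the rest of their group. The other 4 rest on few counts. Igf2bp1 was highest in the P21 midbrain hu/hu replicate 1 (0.0893 TPM from 9 counts, the others 0 to 0.00981 TPM), the library that was also highest in Igf2bp2. Trim71 was highest in the E18.5 hu/hu replicate 5 (0.407 TPM from 15 counts, the others 0 to 0.122 TPM) and at 0 in the P21 midbrain wt/wt replicate 2 (the others 0.0987 to 0.117 TPM). Lin28a had its single cortex count in the wt/wt replicate 4 (0.0262 TPM). The other libraries of that group were at 0, so any count there met the criterion.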

How the results depend on the processing

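Depth limits Lin28a and Trim71 and, at P21, Igf2bp1 and Hmga2, which had at most 30 counts in any library of these comparisons. Every one of the 8 genes called with age (7) or between regions (4) was also called under each alternative in which it was tested, except Igf2bp3 between regions without either of the 2 libraries named above. Lin28a was not tested with age at a mean of at least 10 counts, nor without any 1 of 8 of the E18.5 libraries (6 genes called), because it then missed the filter, and without the filter it was called between regions (5). None of the 8 was called between genotypes under any alternative (0). Of all genes, 0 were called between genotypes in P21 midbrain, but 1 by DESeq2 and 4 with the replicate block, none of them among the 8. The block changed no call of the 8 genes and moved the number of all genes called from 13689 to 13708 with age and from 12143 to 12066 between regions. The Igf2bp2 difference between regions, near 0, turned to −0.011 with all 28 libraries in one fit and to −0.070 as a ratio of mean TPM, and ranged from −0.073 to 0.16 with a library left out. Genotype log2 fold changes that changed sign with a library left out ranged from −0.039 to 0.086 (Lin28b), −0.076 to 0.041 (Igf2bp2), −0.14 to 0.021 (Igf2bp3) and −0.074 to 0.11 (Hmga2) in E18.5 midbrain, from −0.11 to 0.0096 (Lin28b) and −0.030 to 0.10 (Igf2bp3) in P21 midbrain, and from −0.017 to 0.069 (Hmga1) in P21 cortex. None of these was called, and the cause was not tested. As a ratio of mean TPM the age changes were −1.85 for Lin28b, −2.10 for Igf2bp3 and 0.21 for Hmga1, and the regional difference of Hmga1 was −0.79. The exact permutation tests of single genes gave 0 with p under 0.05 also with each library left out. For same-numbered pairs an exact sign-flip test was run. With 4 pairs it can give no p under 0.125, so at P21 it could not reach 0.05 and shows nothing there. In E18.5 midbrain, with 6 pairs, its lowest p was 0.25 (Hmga1). Both alternatives were added after the data were seen.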

Other observations

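Over the 12 E18.5 midbrain libraries, after the mean of each genotype was subtracted, Igf2bp1 and Hmga1 went in opposite directions (r = −0.83, Spearman's rho −0.83). The correlation was −0.73 among the 6 hu/hu and −0.95 among the 6 wt/wt libraries, and −0.76 over 10 libraries without the 2 farthest from the median of Igf2bp1. It was singled out after its value was seen, as the largest in size of 15 pairs among 6 of the 8 genes, where the other 14 ranged from −0.365 to 0.38. The libraries share preparation and sequencing, and no test was run.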
